A study of Mus musculus with 4 samples.

Results

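Ddx6 belongs to a large family of RNA helicases, and the other DEAD-box and DEAH-box genes of the mouse were examined in embryos that lack it. The genes were chosen by name alone. They were those whose symbol was Ddx or Dhx followed by a digit, without Ddx6 itself and without Ddx3x and Ddx3y, and with at least 10 reads in at least 1 library. The table held 54 such symbols in 24421 genes. After the exclusions 51 were left, and 50 had enough reads, 34 of them Ddx and 16 Dhx genes. The 1 that did not was Ddx60, a gene of the antiviral response, with 3 reads in KO2 and 0 in each of the other libraries.

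RNA sequencing had measured polyadenylated RNA of whole embryos of the ICR strain in 4 libraries. Wild-type embryos gave 1 library at each of embryonic days 7.5 and 8.5 (E7.5 WT and E8.5 WT), and Ddx6 knockout embryos of day 8.5 gave 2 (KO1 and KO2). The knockout allele lacks exon 5, which Cre recombinase driven by the ubiquitous CAG promoter had removed in the parental line. According to the methods, KO1 pooled 1 embryo from before and 1 from after head-fold formation, and KO2 pooled 3 embryos from before it. The KO libraries also differed in sex-linked transcripts. The 4 Y-linked genes measured summed to 1100 reads at E7.5 WT, 2179 at E8.5 WT, 1584 for KO1 and 0 for KO2, and Xist, which is expressed from the inactive X chromosome of females, had 46, 17, 15 and 17340. A difference between KO1 and KO2 therefore cannot be told apart from a difference in morphological stage or in the sex of the pooled embryos. Each wild-type stage had 1 library, so that only the spread between KO1 and KO2 was measured. The lowest total read count was 8198402 (KO1) and the highest 12562640 (E8.5 WT). Markers of extraembryonic and maternal cells differed between the libraries. The 5 trophoblast genes measured of 6 listed summed to 2968 reads at E7.5 WT, 2244 at E8.5 WT, 3563 for KO1 and 10069 for KO2, of which 2570, 2229, 3544 and 4028 were of Hand1, which embryonic heart and mesoderm also express. Without Hand1 the other 4 summed to 398, 15, 19 and 6041 in the same order. The 7 uterine natural killer cell genes measured of 8 summed to 35, 4, 28 and 249, and the 4 genes of maternal decidua to 1575, 263, 433 and 1667. Of the decidua reads, 1318, 26, 64 and 1433 were of Prl8a2. The others, Cryab, Dcn and Col3a1, had 102, 23 and 112 reads at E8.5 WT and 108, 20 and 106 for KO2. In KO1 they had 118, 19 and 232. The part of such cells in the values below was not tested. In whole embryos, fewer cells of a type and less RNA per cell cannot be told apart.

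DEAD-box and DEAH-box proteins use ATP to unwind short RNA duplexes, to clamp RNA or to strip proteins from it. Each family is named after the letters of 4 residues in the ATP-binding core, where aspartate and glutamate hold the magnesium ion used in hydrolysis. DDX6 acts in the cytoplasm, where it represses translation and promotes decapping of mRNA, also of those targeted by microRNAs. Its relatives serve nearly every other step in the life of an RNA, from the making of ribosomes to splicing, export and decay. Since the helicase cores are alike, whether a relative is present at a higher level when Ddx6 is lost was asked of each gene.

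The coding sequence around the 4-residue motif is shown for Ddx6 and for 9 relatives, because it is the feature that gives the family its name and because it shows how alike or unlike the genes are. The 30 bases run 5′ to 3′ on the coding strand, and capitals mark the 4 motif codons. Sequences were taken from GENCODE transcripts of the GRCm38 assembly.
Ddx6: atagtgctaGATGAGGCAGATaaattgttg
Ddx19a: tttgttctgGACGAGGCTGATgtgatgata
Ddx19b: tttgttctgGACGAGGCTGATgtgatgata
Ddx25: tttgtcctgGATGAAGCAGATgtgatgatt
Ddx4: ttagttttgGATGAAGCTGATcgaatgttg
Ddx59: gtcgtagtaGACGAAGCTGACaccatgttg
Ddx21: gttgtcctgGATGAAGTCGACcagatgttg
Ddx39b: tttattttgGACGAGTGTGACaagatgctt
Dhx15: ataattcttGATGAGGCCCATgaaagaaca
Dhx36: attgtacttGATGAAATTCATgaaaggaat

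The Ddx6 site is split between exon 7 (chr9:44626468-44626482, plus strand) and exon 8 (chr9:44627638-44627652) of 14, downstream of the deleted exon 5. It encodes DEAD, as do the sites of Ddx19a (chr8:110979077-110979106, minus strand, exon 8 of 12), Ddx19b (chr8:111011326-111011355, minus strand, exon 8 of 12), Ddx25 (chr9:35551326-35551355, minus strand, exon 8 of 12) and Ddx4 (chr13:112612088-112612117, minus strand, exon 17 of 22). The Ddx59 site also encodes DEAD and is split between exons 4 (chr1:136424870-136424884, plus strand) and 5 (chr1:136432312-136432326) of 8. Ddx21 encodes DEVD (chr10:62591872-62591901, minus strand, exon 6 of 15) and Ddx39b encodes DECD (chr17:35247081-35247110, plus strand, exon 5 of 11). Dhx15 encodes DEAH (chr5:52171487-52171516, minus strand, exon 4 of 14), and Dhx36 encodes DEIH (chr3:62493845-62493874, minus strand, exon 8 of 25). Among the 50 genes the letters were DEAD in 26 Ddx genes, DEAH in 8 Dhx genes and in Ddx11, and a variant of them in 14 others. Dhx32 held none of the spellings searched, which were DE followed by A, C, S, I or V and then by D or H. Ddx26b is an older symbol of Ints6l, a relative of an Integrator complex subunit, and was included by its symbol. Ddx26b aligned with DDX6 over 49 residues, while every other Ddx gene with the letters DEAD did so over at least 383. Among the Dhx genes, Dhx15 aligned over 14 and Dhx36 over 15. Whether Ddx26b encodes a helicase was not tested, and it is counted among the 50 helicase genes by its symbol alone.

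Over the whole protein, the closest relatives of DDX6 (483 residues) among the Ddx and Dhx genes were DDX19A and DDX19B. Each had 153 residues identical in a global alignment without a cost for gaps at the ends, or 31.7% of DDX6. DDX25 had 151 (31.3%), DDX23 had 147 (30.4%), and DDX21 and DDX4 had 146 each (30.2%). None of them is a near copy of DDX6. With end gaps free of cost, the aligned length among the Dhx genes ran from 6 residues for DHX37 to 469 for DHX9. The rank of the Dhx genes by identity is therefore uncertain. Some relatives are near copies of each other, with 95.2% identity between DDX19A and DDX19B and 91.1% between DDX39 and DDX39B. The 30 bases shown for Ddx19a and Ddx19b were identical at all 30 positions, so that how reads were assigned to these 2 genes is uncertain. Ddx39 and Ddx39b were identical at 23 of the 30 bases of their sites. Whether their reads could be told apart was not tested. In the GENCODE models, no exon of a helicase gene overlapped an exon of another protein-coding gene on the same strand.

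Ddx6 itself was lower in both knockout libraries, which checks the labels. It had 2943 reads at E7.5 WT, 5715 at E8.5 WT, 706 for KO1 and 929 for KO2. Relative to E8.5 WT the mean log2 change was -2.54 ± 0.10 (SD, n = 2), where a log2 change is the difference of log2 CPM, the read count scaled to a common normalised library total, with a prior count of 2. The edgeR quasi-likelihood test with Benjamini-Hochberg adjustment over all genes gave an adjusted p of 0.196, so that even this gene did not pass it, while DESeq2 gave 3.86e-26.

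None of the 50 helicase genes was higher by a log2 change above 1 in both KO1 and KO2 than in E8.5 WT, while 3.44% of the 14393 genes kept were. None was lower by the same margin in both, against 1.79% of all genes. In KO1 alone 0 of 50 were above 1 (4.97% of all genes) and 0 below -1 (3.31%), and in KO2 alone 0 were above 1 (9.41%) and 0 below -1 (5.91%). Lowering the threshold to 0.5 in both KO libraries gave 0 higher genes (10.2% of all genes) and 1 lower gene (5.43%), which was Ddx4. Changes within 0.5 in both KO libraries were found for 47 of the 50 genes and for 60.6% of all genes. Among genes with at least 50 reads in a library, the numbers were 45 of 48 and 68.7%. The 3 exceptions were Ddx4, Ddx21 and Ddx26b, and all of them were on the lower side.

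**Figure D1:**
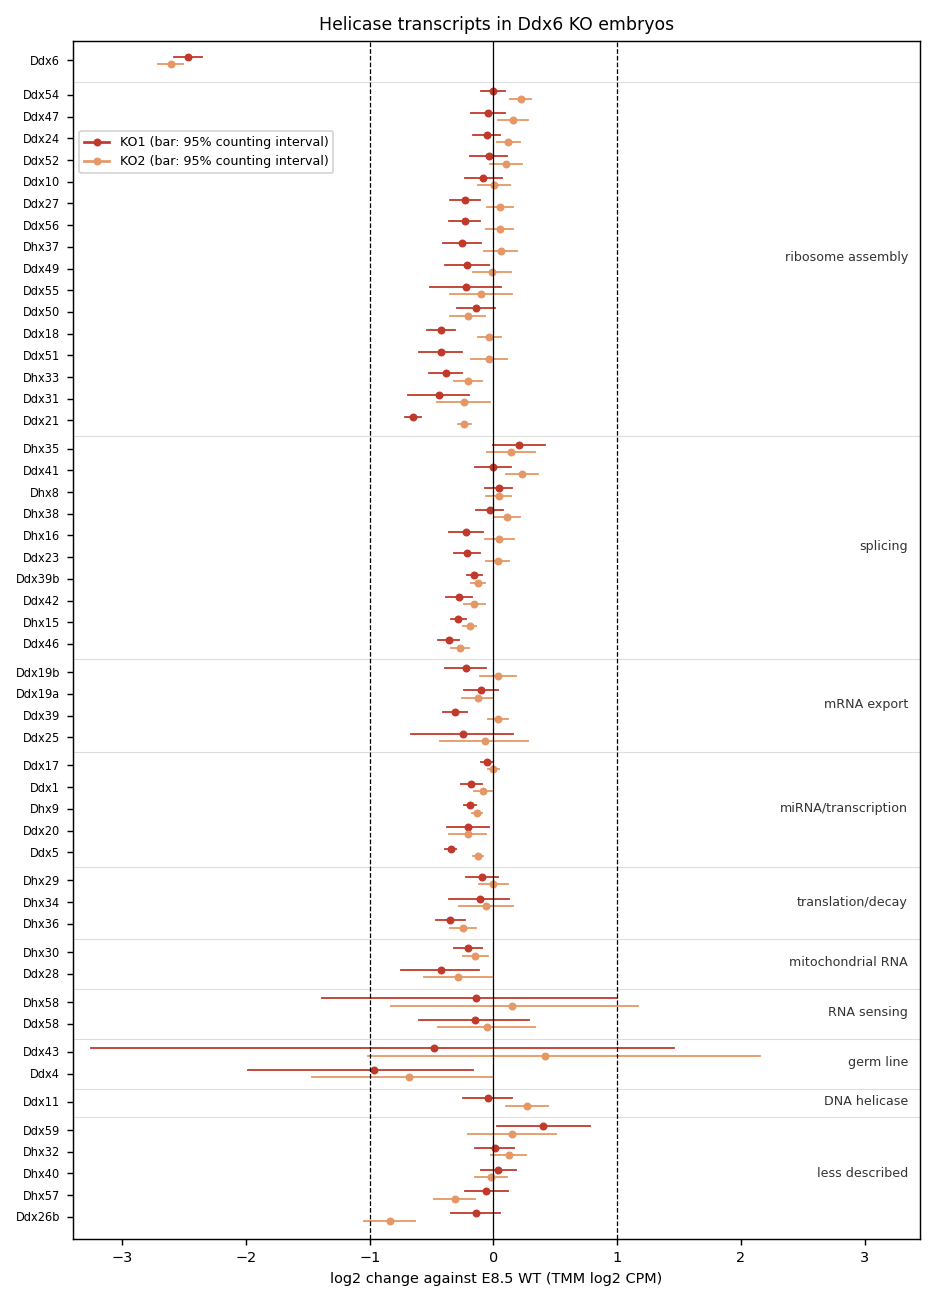
Log2 change of Ddx6 and of each helicase gene against E8.5 WT (x axis, TMM-normalised log2 CPM), grouped by role, with 1 point each for KO1 and KO2 and bars for the 95% counting interval. Ddx6 lies near -2.5 in both libraries, and every other point lies between the dashed lines at -1 and 1.

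The depth set a bound on what could have been missed. From the read counts, an exact Clopper-Pearson 95% interval of each change was computed, which covers counting error only. Its upper end was under 1 in both KO libraries for 48 of the 50 genes and under 0.5 for 47. The exceptions at 1 were Ddx43 and Dhx58, each with at most 42 reads in a library, and Ddx59 was added at 0.5. For Ddx43 and Dhx58 the depth could not exclude a log2 change of 1. The interval lay above 0 in both KO libraries for 0 helicase genes, while 13.7% of all genes met this. It lay below 0 in both for 15 (Ddx1, Ddx4, Ddx5, Ddx20, Ddx21, Ddx28, Ddx31, Ddx39b, Ddx42, Ddx46, Dhx9, Dhx15, Dhx30, Dhx33 and Dhx36), or 30% of the 50, while 15.8% of all genes met this. In single libraries it lay below 0 for 26 genes in KO1 (23.6% of all genes) and for 19 in KO2 (27.6%). All intervals used the TMM scaling alone, so that those with an end near 0 depend on it. Such upper ends in KO2 were -0.005 for Ddx4 and -0.01 for Ddx28. An interval clears 0 more readily the more reads a gene has, and 45 of the 50 had at least 100 reads in every library.

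By the edgeR test, 0 of the 50 genes had an adjusted p under 0.05 against E8.5 WT, and 0.0% of all genes did. The spread in this fit was estimated from KO1 and KO2 alone, with 1 residual degree of freedom. The lowest adjusted p was 0.666, which Ddx21, Ddx46, Dhx15, Dhx33 and Dhx36 shared. At an unadjusted p under 0.05 there were again 0 helicase genes and 7.31% of all genes, the lowest being 0.0547 for Ddx46 by the same edgeR test. With both WT libraries as 1 group, edgeR gave 0 adjusted calls (0.0% of all genes) and 1 at an unadjusted p under 0.05 (3.93% of all genes), which was Ddx4 with 0.0421. The spread in this second fit also held the difference between the WT stages, so that its p-values do not measure spread between replicates alone. DESeq2, the alternative test, called 0 of the 50 after adjustment in the first comparison (0.215% of all genes) and 0 in the second (0.222%).

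As a family the helicase genes lay slightly under E8.5 WT in KO1, where 45 of 50 were lower (36 with plain CPM) with a median log2 change of -0.20. In KO2 they lay close to E8.5 WT, with 29 of 50 lower (22 with plain CPM) and a median of -0.03. Over all 14393 genes kept, 7331 were lower in KO1 and 7215 in KO2, with medians of -0.01 and 0.00. In both KO libraries 28 genes (56%) were lower, 4 (8%) were higher (Ddx59, Dhx8, Dhx32 and Dhx35) and 18 (36%) had opposite signs, while over all genes the shares were 37.6%, 36.3% and 25.8%. The family medians depended on the scaling: with plain CPM they were -0.13 in KO1 and 0.03 in KO2, so that the sign in KO2 turned, and 13 genes were higher in both and 21 lower in both, while DESeq2 size factors gave -0.20 and -0.04 with 4 higher and 29 lower. KO1 and KO2 also differed from each other. Of the 50 genes, 42 were higher in KO2 than in KO1 (41 with plain CPM or with DESeq2 size factors), with a median difference of 0.14. Over all 14393 genes, 7660 were higher in KO2, with a median difference of 0.02. No single gene differed by more than 1 between them, with 0 higher in KO2 (5.99% of all genes) and 0 lower (4.89%).

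**Figure D2:**
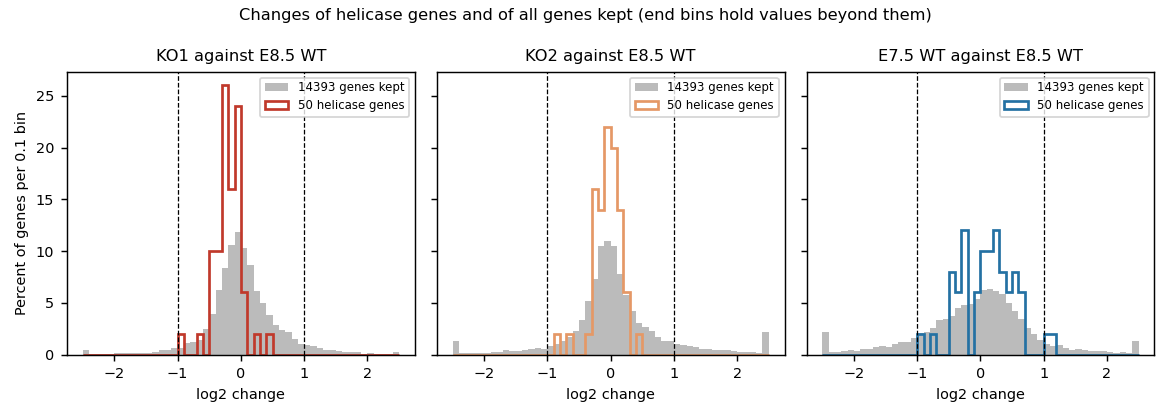
Percent of genes (y axis) in bins of 0.1 of the log2 change (x axis) for KO1, KO2 and E7.5 WT against E8.5 WT, with all genes kept in grey and the 50 helicase genes as a coloured line. The helicase genes sit inside the dashed lines at -1 and 1 in both KO panels, centred at -0.20 in KO1 and -0.03 in KO2, and 2 of them lie above 1 in E7.5 WT.

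Together the 50 genes took 0.753% of reads in E7.5 WT (95% Clopper-Pearson interval 0.748% to 0.757%), 0.768% in E8.5 WT (0.763% to 0.773%), 0.692% in KO1 (0.686% to 0.698%) and 0.756% in KO2 (0.751% to 0.761%). Ddx6 made up 5.59% of the reads of Ddx6 and these genes in E8.5 WT and 3.13% in E7.5 WT, but 1.23% in KO1 and 1.01% in KO2. Ddx6 was lower than in E8.5 WT by 381 CPM in KO1 and 389 CPM in KO2, whereas the summed level of its relatives differed from E8.5 WT by -1096 CPM in KO1 and -398 CPM in KO2. Thus the summed level of the relatives was not above that of E8.5 WT in either KO library.

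The genes differed widely in level. Per kb of exon, the level in E8.5 WT ran from 0.26 CPM for Ddx43 to 167 CPM for Ddx5, or 646-fold, with a median of 16.9. Ddx5 and Ddx17 encode paired cofactors of the Drosha microprocessor and of transcription, and Ddx39b encodes an early splicing factor that also loads the export machinery on mRNA. These were the 3 most abundant per kb. Ddx5 had 118 CPM per kb at E7.5 WT, 167 at E8.5 WT, 131 for KO1 and 153 for KO2. Ddx39b had 150, 126, 113 and 115 CPM per kb in the same order. Ddx17 had 72.9, 102, 98.8 and 102. Ddx5 and Ddx17 were thus lower in E7.5 WT than in the E8.5 libraries, and Ddx39b was highest there. Ddx6 itself had 30.8 CPM per kb at E7.5 WT, 57.9 at E8.5 WT, 10.5 for KO1 and 9.49 for KO2.

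**Figure D3:**
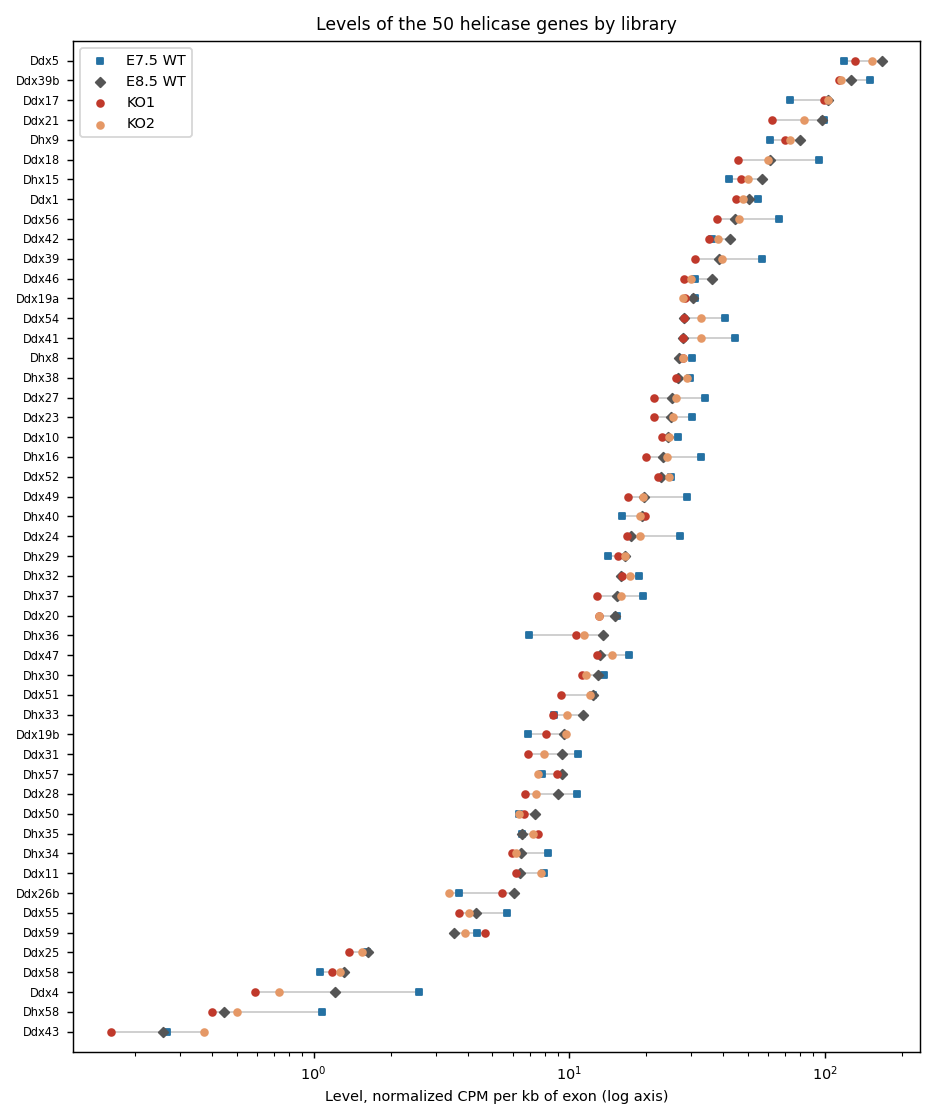
Level of each helicase gene in each of the 4 libraries (x axis, normalised CPM per kb of exon, log axis), ordered by the level in E8.5 WT, with a grey line from the lowest to the highest library. Most genes move little beside the 646-fold range between them, and the widest lines belong to Ddx4, Dhx58 and Ddx43.

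The relatives closest to DDX6 by protein sequence among the Ddx and Dhx genes were near E8.5 WT or under it. Ddx19a, which encodes an ATPase of the nuclear pore that releases exported mRNA, had 1087 reads at E7.5 WT, 1103 at E8.5 WT, 704 for KO1 and 1002 for KO2. Its log2 changes against E8.5 WT were -0.10 in KO1 (95% counting interval -0.24 to 0.04) and -0.13 in KO2 (-0.25 to -0.002). Ddx19b, its near copy, had 555, 787, 460 and 799 reads in the same order, with changes of -0.22 and 0.03. The 4 libraries of Ddx19a differed little from each other, and Ddx19b was lower in E7.5 WT than in the others. Ddx25, which encodes the testis relative of the same group, was found at a low level with 133, 139, 80 and 131 reads and changes of -0.24 and -0.07. Ddx23, which encodes the helicase that exchanges small nuclear RNAs at the 5′ splice site, had 2234, 1905, 1123 and 1933 reads and changes of -0.21 and 0.03. The highest upper end of a counting interval among these 4 genes was 0.28, for Ddx25 in KO2. The fifth place was shared by Ddx21 and Ddx4, which were among the lowest of all 50.

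Ddx4 encodes Vasa, the germ line helicase of the family, and it had the lowest mean change of the 50. It had 93 reads at E7.5 WT, 45 at E8.5 WT, 15 for KO1 and 27 for KO2. Both KO libraries were thus under both WT libraries. The level was 2.05-fold lower than in E8.5 WT in KO1 (log2 change -0.97, counting interval -1.99 to -0.17) and 1.65-fold lower in KO2 (-0.68, -1.47 to -0.005), a mean of -0.82 ± 0.20 (SD, n = 2). Set against E7.5 WT, it differed by -2.03 and -1.74 on the log2 scale. The edgeR adjusted p was 0.672 against E8.5 WT and 0.90 against both WT libraries. Which cells of these embryos the Ddx4 reads came from was not tested. Of 7 markers of primordial germ cells listed beside Ddx4, 5 were kept. Prdm1 was lower in both KO libraries, with 161, 345, 123 and 154 reads and changes of -0.93 and -1.14, while Tfap2c was higher, with 879, 123, 118 and 334 reads and changes of 0.48 and 1.44. Kit (0.30 and -0.10), Dnd1 (-0.09 and 0.57) and Prdm14 (-0.02 and 0.01) did not share one direction. The summed reads of these 5 were 1438, 1440, 1048 and 1416. The germ cell genes Dppa3 and Nanos3 had at most 3 reads in a library. Tfap2c is also expressed in trophoblast, and Prdm1 and Kit in other cells of the embryo. Whether the number of germ cells differed was not tested. Ddx43, the other gene linked to the germ line, had 7, 7, 3 and 10 reads, and its intervals spanned 0 in both KO libraries.

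**Figure D4:**
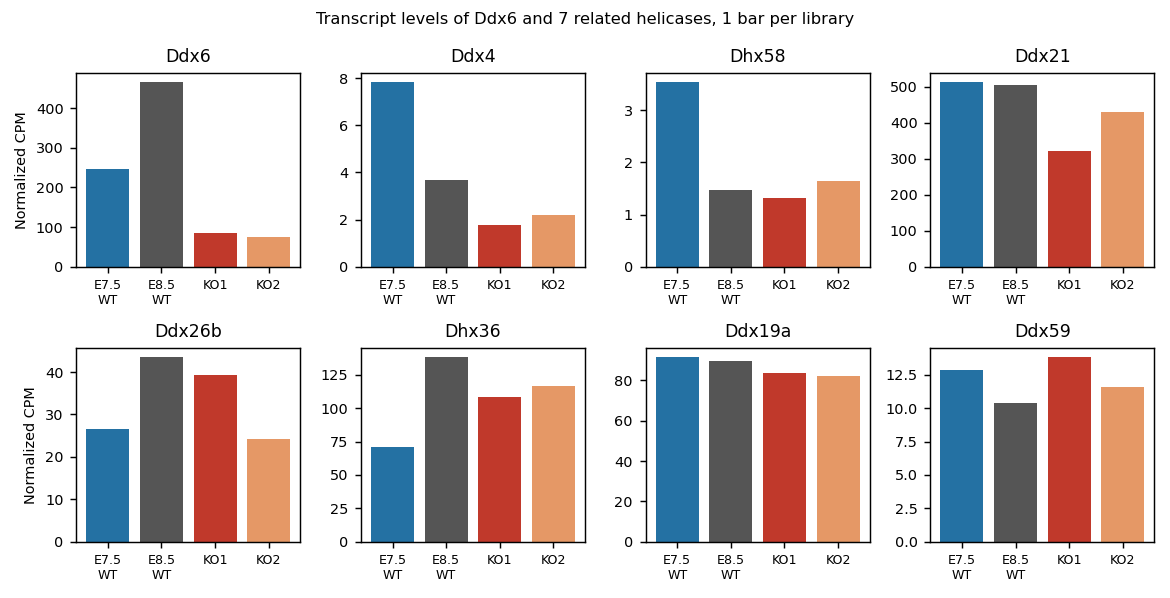
Normalised CPM (y axis, each panel from 0 on its own scale) of Ddx6 and of 7 helicase genes, with 1 bar for each library and no error bar, since each bar is 1 library. Ddx6, Ddx4, Ddx21 and Ddx19a are lower in both KO libraries than in both WT libraries. Ddx26b is low in E7.5 WT and KO2, and Ddx59 is the helicase gene with the highest mean change.

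The largest role group was that of the 16 genes whose products assemble ribosomes in the nucleolus. In KO1 all 16 were under E8.5 WT (12 with plain CPM), as were 7331 of all 14393 genes kept. The median log2 change of the 16 was -0.23, and the counting interval was below 0 for 9 (23.6% of all genes). In KO2 8 were lower and 8 higher, with a median of -0.01 that became 0.05 with plain CPM. Ddx21, a nucleolar helicase that couples rRNA transcription with rRNA processing, was the lowest of them. It had 6081 reads at E7.5 WT, 6207 at E8.5 WT, 2701 for KO1 and 5227 for KO2. The WT libraries were alike, and both KO libraries were lower, with changes of -0.65 in KO1 (-0.72 to -0.59) and -0.24 in KO2 (-0.29 to -0.18). These changes differed from each other beyond counting error, by 0.42 (0.35 to 0.48), and the mean of -0.44 ± 0.29 (SD, n = 2) did not pass the edgeR test against E8.5 WT (adjusted p = 0.666). Ddx31 had 455, 408, 205 and 342 reads, with changes of -0.44 and -0.24, and was among the 5 lowest genes of the family. Ddx50, the closest relative of Ddx21 with 61.8% protein identity, had changes of -0.14 and -0.21. Ddx18 and Ddx51 were lower mainly in KO1, both with a change of -0.42, and had -0.03 and -0.04 in KO2. At the upper end was Ddx54, with 2971, 2116, 1442 and 2447 reads and changes of 0.00 and 0.22. Ribosome assembly factors without a helicase symbol, among them Ncl, Npm1 and Fbl, were also low in KO1. All 18 measured of 18 had a counting interval below 0 in KO1 (23.6% of all genes), with a median of -0.34, and 9 had one in KO2 (27.6%), with a median of -0.08. None of the 18 was above 0.5 in both KO libraries (10.2% of all genes) or below -0.5 in both (5.43%).

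Splicing was served by 10 of the genes, which act one after another on the spliceosome. Of these 8 were lower than E8.5 WT in KO1 (6 with plain CPM), with a median of -0.18, and 4 in KO2, with a median of 0.04. Over all 14393 genes kept, 7331 were lower in KO1 and 7215 in KO2. Ddx46, which remodels the U2 particle on the branch site, had 2700, 3242, 1726 and 2662 reads, with changes of -0.36 (-0.45 to -0.28) and -0.27 (-0.35 to -0.20) and a mean of -0.32 ± 0.06 (SD, n = 2). Dhx15, which takes spent spliceosomes apart, had 4242, 5940, 3335 and 5156 reads and changes of -0.28 and -0.19. Both were lower in KO1 and KO2 than in E8.5 WT, while their E7.5 WT values were lower as well. The catalytic-step helicases Dhx16, Dhx38 and Dhx8 had changes of -0.22 and 0.05, -0.03 and 0.11, and 0.04 and 0.04. Dhx35 and Ddx41 were at the upper end. Dhx35 had 400, 415, 327 and 454 reads and changes of 0.20 (-0.01 to 0.42) and 0.14 (-0.05 to 0.34), and it was the single gene of the 50 above both WT libraries in both KO libraries, yet both intervals included 0. Ddx41, with 1420, 920, 627 and 1071 reads, had changes of 0.00 and 0.23. Of 16 spliceosome subunits without a helicase symbol, 15 had a counting interval below 0 in KO1 (23.6% of all genes) and 11 in KO2 (27.6%), with medians of -0.23 and -0.11.

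A further 5 genes are linked to microRNA processing and transcription, and microRNAs are among the partners with which DDX6 acts. Ddx5 had 8137, 11830, 6356 and 10762 reads, with changes of -0.35 (-0.39 to -0.30) and -0.12 (-0.16 to -0.09). Dhx9, which unwinds structured nuclear RNA and DNA, had changes of -0.19 and -0.13, Ddx20 of the SMN complex -0.21 and -0.21, Ddx1 -0.18 and -0.09, and Ddx17 -0.05 and 0.00. All 5 were thus on the lower side in both libraries by under 0.4, while 37.6% of all genes were lower in both. With plain CPM, however, 1 of the 5 was higher in each KO library. The 3 genes of translation and decay were also near E8.5 WT. Dhx29, which helps ribosomes scan structured leaders, had changes of -0.09 and 0.00, and Dhx34, which acts in nonsense-mediated decay, -0.11 and -0.06. Dhx36, which unwinds RNA G-quadruplexes, had 845 reads at E7.5 WT, 1697 at E8.5 WT, 910 for KO1 and 1419 for KO2. Its changes were -0.35 (-0.47 to -0.23) and -0.25 (-0.35 to -0.14), and both KO libraries lay between the WT stages. The 2 mitochondrial genes, which act in the assembly of mitochondrial ribosomes, were lower in both KO libraries, with counting intervals below 0 under TMM scaling. With plain CPM their median change in KO2 was -0.16 rather than -0.22. Ddx28 had 289, 252, 128 and 205 reads with changes of -0.42 and -0.28, and Dhx30 had 1718, 1686, 997 and 1509 reads with changes of -0.21 and -0.15.

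The sensors of foreign RNA stayed low in the 4 libraries. Ddx58, which encodes RIG-I, had 89, 114, 70 and 109 reads and changes of -0.15 and -0.05. Dhx58, which encodes its regulator LGP2, had 42, 18, 11 and 20 reads. It was highest in E7.5 WT, and its changes against E8.5 WT of -0.14 and 0.15 were within counting error, with an interval of -0.83 to 1.17 for KO2. Of 19 interferon-stimulated genes listed beside them, 11 had enough reads, with median changes of 0.31 in KO1 and 0.86 in KO2. Of these 11, Oas1a alone was above 1 in both KO libraries, from 3 reads in E8.5 WT to 7 and 31, and 21 in E7.5 WT. Bst2 (131 reads in E8.5 WT, 134 in KO1, 385 in KO2) and Irf7 (2, 3 and 9) were among those above 0.5 in both, and Ifit2 (162, 70 and 100) was below -0.5 in both. These counts are small, and the direction in E7.5 WT was the same as in KO2 for Oas1a, Irf7 and Bst2, with E7.5 WT above E8.5 WT by 2.20, 2.38 and 1.52.

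The remaining genes hold the highest and one of the lowest mean changes. Ddx59, a gene whose product is less well described, had 153, 128, 116 and 141 reads, and its changes were 0.40 (0.03 to 0.78) in KO1 and 0.15 (-0.20 to 0.51) in KO2. The mean of 0.28 ± 0.18 (SD, n = 2) was the highest of the 50, with an edgeR adjusted p of 0.785, and E7.5 WT was also above E8.5 WT, by 0.30. Thus the highest mean of the family corresponded to a 1.33-fold difference in 1 library and 1.11-fold in the other. The highest change in a single library was 0.42 for Ddx43 in KO2, from 7 reads in E8.5 WT and 10 in KO2. Ddx11, a DNA helicase of sister chromatid cohesion, had 630, 522, 345 and 625 reads and was higher in KO2, by 0.27 (0.10 to 0.44), with -0.05 in KO1. Ddx26b had 316, 534, 330 and 296 reads. It was low in E7.5 WT and KO2 and higher in E8.5 WT and KO1, with changes of -0.14 in KO1 (-0.35 to 0.06) and -0.83 in KO2 (-1.05 to -0.63), and KO2 was lower than KO1 by a log2 difference of -0.69 (-0.93 to -0.46). This gene is on the X chromosome. Dhx57 also was lower in KO2, with -0.06 and -0.31. Dhx32 (0.01 and 0.12) and Dhx40 (0.04 and -0.02) were near 0.

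The stage of wild-type embryos gave a scale for these differences. Between E7.5 WT and E8.5 WT, 2 of the 50 genes were higher at E7.5 by more than 1 (7.82% of all genes), and these were Dhx58 (1.17, interval 0.44 to 2.15) and Ddx4 (1.06, 0.57 to 1.64). None was lower by more than 1, while 12.2% of all genes were. At a threshold of 0.5, 9 were higher at E7.5 (21.4% of all genes), namely Ddx4, Ddx18, Ddx24, Ddx39, Ddx41, Ddx49, Ddx54, Ddx56 and Dhx58, and 2 were lower (25.8%), which were Dhx36 with -0.96 and Ddx26b with -0.71. Of the 9, 5 were ribosome assembly genes. The ribosome assembly group as a whole was higher at E7.5 in 13 of 16 genes (14 with DESeq2 size factors), with a median of 0.36. Over all 14393 genes kept, 7327 were higher and 7058 lower at E7.5, with a median of 0.02. Ddx18 had 2784 reads at the earlier and 1862 at the later stage, a 1.54-fold difference, and Ddx24 had 2653 and 1760. In contrast, 3 of the 5 genes of microRNA processing and transcription were lower at E7.5, with a median of -0.38. Against E7.5 WT, 0 of the 50 genes were higher by more than 1 in both KO libraries (6.91% of all genes) and 2 were lower (2.7%), again Ddx4 and Dhx58, with -1.32 and -1.03 for Dhx58. The KO comparisons with E7.5 WT and with E8.5 WT share the same KO libraries, so that they are not independent of each other. Both KO libraries were between the WT levels for 9 genes (26.4% of all genes), under both for 16 (17.6%) and above both for 1 (18.4%), which was Dhx35.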

How the data were processed

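Polyadenylated RNA of mouse embryos was sequenced in 4 libraries with a stranded kit. The authors deposited a table of raw, unnormalised read counts. Per the methods and processing notes, reads were trimmed with Cutadapt 2.8, checked with FastQC 0.11.7, aligned to mm10 with HISAT2 2.1.0, sorted with SAMtools 1.9 and counted over exons by strand with featureCounts 2.0.0. Reads that fit more than 1 gene were not counted under its default settings, which can lower the counts of near-identical genes. Groups were taken from the sample labels.

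Counts were normalised with TMM factors (0.983 for E7.5 WT, 0.978 for E8.5 WT, 1.02 for KO1, 1.01 for KO2) in edgeR 4.0.16 under R 4.3.3, and a gene was kept if any library held 10 counts or more, which left 14393 of 24421. Changes were differences of log2 CPM with a prior count of 2. A call needed a log2 change beyond 1, the criterion of the methods, in both KO libraries. Two-sided quasi-likelihood F-tests were adjusted over all genes kept, and DESeq2 1.42.0 was the alternative. Labels do not say whether the KO pools came from separate litters, so p-values measure the spread between these samples. Intervals are exact Clopper-Pearson 95% intervals of read counts, cover counting error only, and treat reads as independent molecules. The scripts were tested on simulated data.

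All 54 helicase symbols were matched to GENCODE gene models on GRCm38, the assembly of mm10, of which exon lengths, positions and coding sequences were used; the gene models behind the counts may differ from them. Proteins translated from these were aligned globally, without a cost for gaps at the ends, with Biopython 1.88. The helicase genes, their role groups and the companion lists were chosen with earlier results of these data known. Genes named are Ddx6, helicase genes beyond 1 in a comparison with E8.5 WT, the 5 highest and 5 lowest by mean KO change, the 5 Ddx or Dhx genes closest to DDX6 by protein, the 3 most abundant per kb of exon, and genes of the role groups and lists. Values of some single genes that meet this rule are not reported here.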

Additional observations from a re-analysis of the deposited data

How the results depend on the processing

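No paired analysis was possible because the WT libraries carry no replicate numbers that could be matched with those of KO1 and KO2. Values were recomputed with plain CPM or DESeq2 size factors, without a filter or with a minimum of 50 counts, a prior count of 0.5, thresholds of 0.5 and 2, the DESeq2 test, and leaving out each KO library. Of 83 values computed under them, 74 stayed within the spread or within 1.5 times the count, and 9 moved. Some of the 74 could not have moved, so that their number does not measure robustness. A count of 0 at a threshold of 1 stays 0 at 2. A count against both WT libraries cannot exceed that against E8.5 WT. By the main edgeR test, 0.0% of all genes had an adjusted p under 0.05. With a threshold of 0.5, the genes higher in E7.5 WT than E8.5 WT went from 2 to 9 and those lower from 0 to 2, those lower in both KO libraries than E8.5 WT or than both WT libraries went from 0 to 1 (Ddx4 in each), and those differing between KO2 and KO1 went from 0 to 2 (Ddx26b and Ddx43). A threshold of 2 left 0 genes higher in E7.5 WT, and a minimum of 50 counts left 1, since Dhx58 was then not tested. Without a filter, and with a prior count of 0.5, 1 gene differed between KO2 and KO1. The count of genes higher in both KO libraries was 0 under every alternative run. Among these, a threshold of 0.5, plain CPM and leaving out each KO library could have raised it. The mean of the median changes in KO1 and KO2 was -0.11 ± 0.12 (SD, n = 2) and ran from -0.19 without KO2 to -0.03 without KO1. Depth limits Ddx43, Dhx58 and Ddx4 most, since each had under 100 reads in every library, and each WT stage rests on 1 library.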

Other observations

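A separate list held RNA helicases with other symbols. Of 21 such genes, 20 had enough reads, with medians of -0.09 in KO1 and -0.01 in KO2. With TMM scaling, 0 of the 20 were above 0.5 in both KO libraries (10.2% of all genes) and 0 below -0.5 (5.43%). The first count was near its limit, since Mov10 had 0.49 in KO1 and 0.73 in KO2. Counts for this list are given for TMM scaling alone. The 3 Eif4a genes encode DEAD-box proteins of translation initiation (Eif4a1 and Eif4a2) and of the exon junction complex (Eif4a3), and 149, 149 and 150 residues of DDX6 are identical in them, more than in DDX23. Eif4a1 had 19276 reads at E7.5 WT, 16871 at E8.5 WT, 10052 for KO1 and 15419 for KO2, with log2 changes of -0.20 and -0.12 against E8.5 WT. Eif4a2 had 2931, 3734, 1951 and 3053 reads and changes of -0.39 and -0.28, and Eif4a3 had 3468, 2551, 1460 and 2404 reads and changes of -0.26 and -0.07.

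Mov10, which encodes a helicase found with the Argonaute proteins of microRNA silencing, had the highest changes of the 20 among those with at least 50 reads. It had 857 reads at E7.5 WT, 504 at E8.5 WT, 485 for KO1 and 831 for KO2, with changes of 0.49 (95% counting interval 0.31 to 0.68) and 0.73 (0.57 to 0.90). Both intervals lay above 0, which was so for 0 of the 50 Ddx and Dhx genes. The mean of 0.61 ± 0.17 (SD, n = 2) did not pass the edgeR test against E8.5 WT after adjustment (adjusted p = 0.666; 0.026 before it). E7.5 WT was also above E8.5 WT, by 0.81, and both KO libraries were below E7.5 WT. Helz2, an interferon-induced gene, had 230, 341, 267 and 491 reads and changes of 0.20 and 0.54. Dicer1, which encodes the enzyme that makes microRNAs from their precursors, had 2029, 3634, 2516 and 3082 reads and changes of 0.02 and -0.23. Skiv2l of the cytoplasmic exosome (0.02 and 0.08) and Upf1 of nonsense-mediated decay (-0.22 and 0.05) were near E8.5 WT.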
